A study of Mus musculus with 14 samples.

Results

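The 8 genes of the cytosolic chaperonin CCT (also called TRiC) were described in mouse 2-cell embryos: Tcp1, Cct2, Cct3, Cct4, Cct5, Cct6a, Cct7 and Cct8. They were chosen by gene symbol, and each symbol was found once among the 56923 genes of the count table. RNA-seq counts were held for 14 libraries in 7 conditions, with 2 libraries per condition and 5 embryos per library. Collection was at 30 h post-hCG for the early 2-cell stage and at 54 h for the late one. The G&N groups were cultured from 24 h post-hCG with 5 μM Gne140, an inhibitor of lactate dehydrogenase, and 50 μM NMN, a precursor of NAD+, in medium with 10 mM lactate. The G&N-L groups had the same additions in medium without lactate, and the late G&N-L + Lac-CoA embryos grew from zygotes microinjected with 1 mM lactyl-CoA, the acyl donor of lactylation. No injection is described for the other groups cultured with Gne140, so the injection and the lactyl-CoA cannot be told apart. H3K18R embryos had been injected at 14 h post-hCG with mRNAs of histone H3 whose lysine 18 was changed to arginine, and the late 2-cell WT group was given by the study as embryos with wild-type H3 mRNAs. By the titles and the study's methods, Gne140 and NMN were thus present in all G&N and G&N-L groups, controls included. The treatment labels of the early libraries differ from this, with Gne140 alone for those titled G+N, and with Gne140 and NMN but no word on lactate for those titled G+N-L. If those labels hold, the early groups differed in NMN, and NMN cannot be told apart from lactate at the early stage or from stage in G&N embryos.

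CCT is an ATP-driven chaperonin of the cytosol that encloses newly made proteins and folds actin, tubulin and other proteins that rarely fold without it. Each of its stacked rings holds the full set of subunits in a fixed order, so a complete complex needs all of them. At the 2-cell stage, mRNA inherited from the oocyte is degraded while the embryo's own genome becomes active, and a gene can therefore be read from maternal mRNA, from new transcription or from both.

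The genes lie on 8 chromosomes. Tcp1 (subunit alpha; chr17:13134588-13163066) and Cct6a (zeta; chr5:129864049-129875406) are shown with Cct7 (eta; chr6:85428439-85445708) because, once the levels were seen, they had the clearest rise or fall between the stages in G&N embryos. Each line below gives 250 bases before and 50 bases after the start of the canonical transcript on GRCm39, all on the plus strand: chr17:13134966-13135265, chr5:129863812-129864111 and chr6:85428190-85428489. Capitals mark matches, on either strand, to the CCAAT box, to the GC box GGGCGG and to the ETS motif CCGGAAG.
Tcp1 promoter: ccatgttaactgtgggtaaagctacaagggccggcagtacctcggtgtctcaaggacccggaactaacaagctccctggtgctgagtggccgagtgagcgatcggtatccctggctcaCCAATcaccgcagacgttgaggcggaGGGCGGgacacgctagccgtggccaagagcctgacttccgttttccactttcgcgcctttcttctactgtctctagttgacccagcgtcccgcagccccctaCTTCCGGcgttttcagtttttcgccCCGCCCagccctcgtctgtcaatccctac
Cct6a promoter: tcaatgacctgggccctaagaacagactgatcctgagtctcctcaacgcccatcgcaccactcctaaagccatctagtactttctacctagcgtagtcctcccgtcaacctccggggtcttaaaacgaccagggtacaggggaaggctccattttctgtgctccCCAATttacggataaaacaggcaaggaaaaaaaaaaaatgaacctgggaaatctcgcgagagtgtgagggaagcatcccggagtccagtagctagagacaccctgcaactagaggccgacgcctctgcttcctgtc
Cct7 promoter: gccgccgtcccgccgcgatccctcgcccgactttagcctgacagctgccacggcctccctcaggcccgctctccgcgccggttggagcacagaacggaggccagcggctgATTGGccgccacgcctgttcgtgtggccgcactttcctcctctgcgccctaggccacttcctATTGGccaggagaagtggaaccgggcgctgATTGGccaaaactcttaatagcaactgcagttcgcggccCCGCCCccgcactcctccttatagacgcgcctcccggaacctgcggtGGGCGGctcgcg
A CCAAT box was in 3 of the 8 promoters (Tcp1, Cct6a and Cct7, with 3 matches in Cct7), against 39.9% of 21631 promoters of the same length. The GC box was in 5 of 8 (42.6% of all promoters), and the ETS motif in Tcp1, Cct2 and Cct8 (10.3%). The NRF1 motif (GCGC, any 2 bases, GCGC) was in Cct3 and Cct5 (7.55%). None of the 8 windows held the heat shock element GAANNTTC (7.43% of all), the E-box CACGTG (7.85%), TGACGT (8.57%) or TATAAA (13.2%). The Cct4 window had the lowest G+C content of the 8, at 43.7%, and Cct7 the highest, at 67.7%, where the median over all promoters was 54.3%. The printed matches do not overlap each other, and a match describes letters, not a bound site.

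Library totals ran from 20350427 counts (H3K18R replicate 1) to 61275465 counts (early 2-cell G&N replicate 1), so that the 3 counts which an observed 0 allows corresponded to 0.0589 to 0.144 CPM on normalized library sizes. Such limits cover counting error only, because reads amplified by PCR without molecular identifiers are not independent molecules. Nothing in the sources states that the libraries of a condition came from separate cultures, so the p-values below measure the spread between these libraries, which may be technical. All libraries expressed markers of the 2-cell embryo, whose 9 measured genes summed to 97.9 to 198 CPM in early and 1115 to 4653 CPM in late libraries. The summed level of 13 oocyte and maternal markers was 22204 to 29925 CPM in early and 3860 to 20452 CPM in late libraries. The 15 cumulus and granulosa cell markers summed to 9.48 to 40.9 CPM and the 6 sperm markers to 2.74 to 23.6 CPM, so the markers of other cell types were low in each library. Levels are given as CPM on normalized library sizes, and an increase or a decrease is relative to the other mRNAs of the library. In pools of whole embryos, fewer cells of a type and less of the RNA per cell cannot be told apart.

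Per kilobase of the canonical transcript, the subunit mRNAs were far from equal. Cct8, which encodes subunit theta, was the highest in every library, with 246 ± 23.5 CPM per kb (SD, n = 2) in early G&N and 118 ± 24.5 in late G&N embryos. Its share of the summed level of the 8 genes was 56.4% ± 9.07 in early G&N, 58.7% ± 1.40 in early G&N-L and 29.7% ± 0.532 in late G&N embryos (SD, n = 2). Cct3 (gamma) came second in both early groups and in late G&N and G&N-L, while Tcp1 came second in the Lac-CoA, H3K18R and WT groups. Cct6a was the lowest in both early groups, with 0.0272% ± 0.0136 of the sum in early G&N embryos, and held 6.14% ± 0.478 in late G&N embryos. By mean, the lowest subunit of the late groups was Cct4 (delta) in G&N-L, and Cct5 (epsilon) or Cct7 elsewhere. Lengths over the union of exons put Cct8 highest in each condition as well, and changed some of the ranks below it. With them, Cct2 came second in early G&N-L, Tcp1 came second in late G&N and G&N-L, and Cct7 was below Cct4 in late G&N-L. The summed level of the 8 genes was 439 ± 28.8 CPM per kb in early G&N, 375 ± 14.6 in early G&N-L, 395 ± 75.2 in late G&N, 209 ± 10.6 in late G&N-L, 359 ± 62.6 in late G&N-L + Lac-CoA, 480 ± 116 in H3K18R and 643 ± 77.5 in WT embryos (SD, n = 2). In the late libraries the highest of the 8 was 7.67 to 19.5 times the lowest, and no such ratio is given for the early ones, where Cct6a had 2 to 43 counts.

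**Figure D1:**
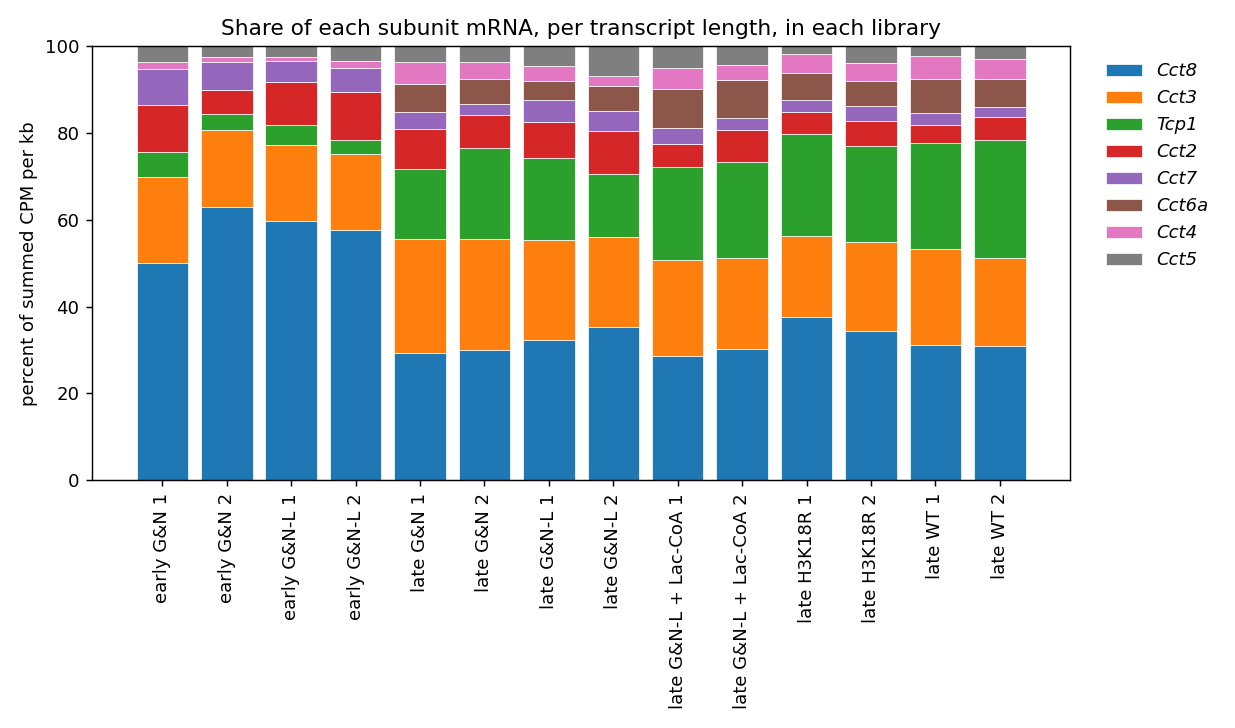
Share of each subunit mRNA in the summed level of the 8 genes (percent of summed CPM per kb of canonical transcript), 1 bar per library, 2 libraries per condition. Cct8 holds 49.99 to 62.8% in the early libraries and 28.6 to 37.7% in the late ones, and Cct6a is visible only in the late libraries.

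The comparison of late with early embryos asks how the subunit mRNAs changed as the embryonic genome became active. In G&N embryos, Cct6a, Tcp1 and Cct4 rose and Cct7 fell, while Cct2, Cct3 and Cct5 did not pass the test. Cct6a had 24 and 9 counts in the early G&N libraries and 2252 and 3153 counts in the late G&N libraries, or 0.471 and 0.205 against 61.6 and 72.4 CPM. The early libraries were close to the counting floor, and the late ones stood far above them, with a log2 fold change of 7.57 (SE 0.551; adjusted p = 0.00599 by edgeR's quasi-likelihood test). Tcp1 was at 65.8 and 40.8 CPM in early G&N and at 139 and 237 CPM in late G&N libraries, a log2 fold change of 1.77 (SE 0.367; edgeR adjusted p = 0.0374). Cct4 was at 36.4 and 21.7 CPM in early and at 82.5 and 84.6 CPM in late libraries, a log2 fold change of 1.48 (SE 0.323; edgeR adjusted p = 0.0421). All late libraries lay above all early ones for these 3 genes. Such a separation, here and below, only describes the 4 libraries of a comparison. With 2 libraries a group, the smallest two-sided p of an exact permutation test is 0.333. The share of all genes separated in this way was not computed.

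Cct7 moved the other way, from 94.1 and 67.6 CPM in early G&N libraries to 32.1 and 28.4 CPM in late G&N libraries (log2 fold change -1.48, SE 0.296; edgeR adjusted p = 0.0349). Cct8 was at 798 and 914 CPM in early and 349 and 470 CPM in late libraries, which did not overlap, and its log2 fold change of -1.15 (SE 0.285) just missed the threshold (edgeR adjusted p = 0.0546). The remaining subunits had log2 fold changes of -0.19 (Cct2, beta), 0.23 (Cct3) and 0.04 (Cct5), and their early and late libraries overlapped. Thus 3 of 8 subunits were called higher, where 8.18% of the 19443 genes tested were, and 1 of 8 lower, where 5.47% were. By DESeq2, 5 of 8 passed, the fifth being Cct8, where 30.6% of all genes did. Without late G&N replicate 1, without late G&N replicate 2 or without early G&N replicate 2, Cct6a was the only call of the 4 left, and without early G&N replicate 1 Cct8 passed and Cct7 did not.

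In embryos without lactate, Cct6a and Tcp1 were again higher at the late stage, and Cct8 and Cct2 were lower. Cct6a had 43 and 2 counts in early G&N-L libraries (1.08 and 0.0907 CPM) and 922 and 1341 counts in late G&N-L libraries (23.97 and 34.99 CPM), a log2 fold change of 5.53 (SE 1.05; edgeR adjusted p = 0.0351). Tcp1 went from 44.8 and 30.5 CPM to 95.9 and 79.7 CPM (log2 fold change 1.17, SE 0.257; edgeR adjusted p = 0.0484). Cct8 was at 799 and 731 CPM in early and at 226 and 265 CPM in late libraries, so the groups did not overlap (log2 fold change -1.70, SE 0.152; edgeR adjusted p = 0.00769). Cct2 was at 74.0 and 78.7 CPM in early and at 32.9 and 41.6 CPM in late libraries (log2 fold change -1.10, SE 0.228; edgeR adjusted p = 0.0429). The late G&N-L libraries of Cct7, at 25.1 and 25.4 CPM, lay below the early ones, at 46.5 and 51.5 CPM, with a log2 fold change of -1.02 (edgeR adjusted p = 0.0581). Cct3 had a log2 fold change of -0.58 (edgeR adjusted p = 0.0780), Cct4 one of 0.27 and Cct5 one of 0.07. So 2 of 8 subunits were called higher (5.97% of the 18604 genes tested) and 2 of 8 lower (5.87%), and 6 of 8 passed by DESeq2, where 28.0% of all genes did. Cct8 passed without any 1 of the 4 libraries, Cct6a did not pass without either late library, and Tcp1 and Cct2 did not pass when any 1 library was left out.

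Between late and early G&N embryos, 5 of 9 markers of the 2-cell embryo rose and 6 of 13 oocyte and maternal markers fell by edgeR, and in G&N-L embryos 7 of 9 rose and 3 of 13 fell. Of the markers of other cells in G&N embryos, the cumulus gene Tnfaip6 rose (1 of 8 tested), and 0 of 3 tested sperm markers passed the test. The part of these in the subunit values was not tested.

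The scaling of early against late libraries bears on these values. Without TMM, the median log2 fold change over all genes moved from 0.08 to 0.46 in G&N and from 0.15 to 0.51 in G&N-L embryos. Cct7 in G&N (log2 fold change -1.10) and Cct2 in G&N-L embryos (-0.74) then missed the threshold. Relative to the median of all genes, the change of Cct7 in G&N embryos was -1.56 with TMM and -1.55 without it, that of Tcp1 was 1.69 and 1.66, and that of Cct4 was 1.40 and 1.38. A change of scale shifts each gene and the median nearly alike. These values therefore agree by calculation, and they do not test which scaling is right.

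**Figure D2:**
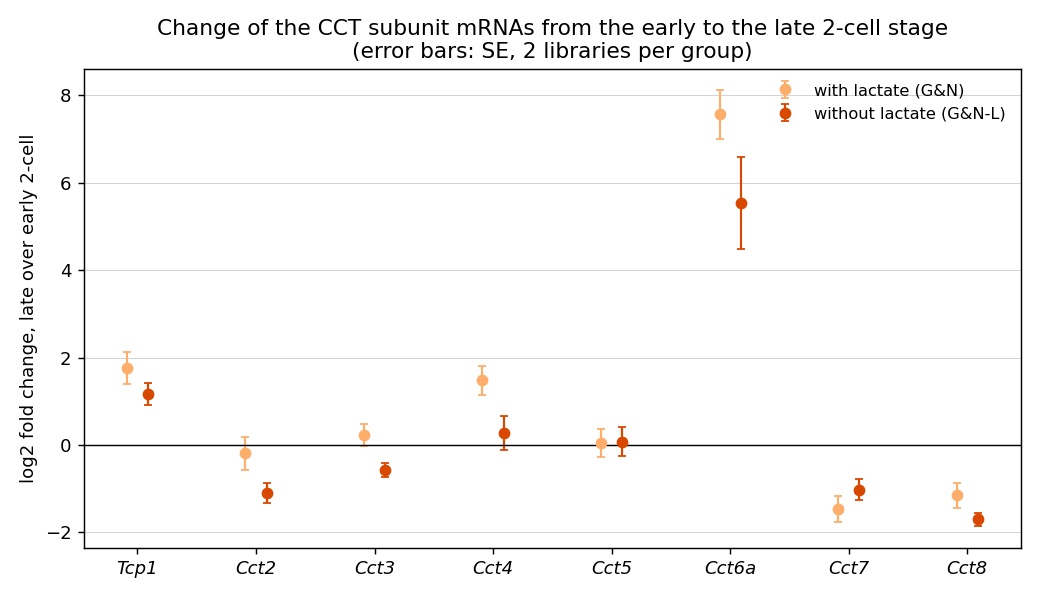
Log2 fold change of each subunit mRNA from the early to the late 2-cell stage, with lactate (G&N) and without (G&N-L), with the standard error from 2 libraries per group. Cct6a stands at 7.57 and 5.53, Tcp1 is above 0 in both media, Cct7 and Cct8 are below 0 in both, and Cct5 lies at 0.04 and 0.07.

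Cct6b, which encodes the second form of subunit zeta and is known from testis, also had few counts in early embryos. It had 39 and 0 counts in early G&N libraries and 0 and 0 counts in early G&N-L libraries, and was at 2.71 and 8.13 CPM in late G&N libraries. In early G&N replicate 1, its 39 counts exceeded the 24 counts of Cct6a. In late embryos, Cct6b was at 1.49 to 8.13 CPM in the G&N, G&N-L and Lac-CoA groups, and at 25.2 to 34.1 CPM in the H3K18R and WT groups. Neither zeta mRNA exceeded 43 counts in an early library, while the other 7 subunits were at 17.9 CPM or more in each of them.

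The late G&N-L and G&N groups were compared to ask what changed when lactate was absent from the medium. The 8 subunit mRNAs had lower fitted levels without lactate, with log2 fold changes from -1.55 to -0.20. Cct4 was at 32.9 and 22.1 CPM in G&N-L and at 82.5 and 84.6 CPM in G&N libraries, or 0.341 times the G&N level (log2 fold change -1.55, SE 0.306; edgeR adjusted p = 0.313). Cct3 was at 97.9 and 95.0 CPM in G&N-L and 189 and 241 CPM in G&N libraries (log2 fold change -1.11, SE 0.212; edgeR adjusted p = 0.311). Cct6a was at 23.97 and 34.99 CPM against 61.6 and 72.4 CPM (log2 fold change -1.14, SE 0.2998; edgeR adjusted p = 0.331). Neither library without lactate reached the lower of the G&N libraries for these 3 genes, a description for which no share over all genes was computed.

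Tcp1 was at 95.9 and 79.7 CPM in G&N-L and at 139 and 237 CPM in G&N libraries (log2 fold change -1.04, SE 0.301; edgeR adjusted p = 0.332). Cct8 was at 226 and 265 CPM against 349 and 470 CPM (log2 fold change -0.68, SE 0.212; edgeR adjusted p = 0.334), and Cct2 at 32.9 and 41.6 CPM against 62.4 and 66.1 CPM (log2 fold change -0.74, SE 0.262; edgeR adjusted p = 0.356). These G&N-L libraries, too, lay below the G&N libraries. Cct7 and Cct5 had the smallest differences, with log2 fold changes of -0.22 (SE 0.309) and -0.20 (SE 0.320), and the Cct5 libraries of both groups overlapped.

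No subunit passed the adjusted threshold by edgeR, where 0 of 19481 genes did. By a volcano-plot criterion set here, which takes a log2 fold change over 0.5 in size together with an unadjusted p under 0.05, 6 of 8 were lower, against 7.63% of all genes tested. The median log2 fold change of the 8 was -0.89, against -0.02 over all genes. By DESeq2, Tcp1, Cct3, Cct4 and Cct6a passed the adjusted threshold (4 of 8, where 4.70% of all genes did), with DESeq2 adjusted p-values of 0.0435, 0.00197, 0.00115 and 0.0483. Leaving out 1 library moved the median of the 8 to between -1.03 (without late G&N replicate 1) and -0.62 (without late G&N replicate 2). Over all genes the median was then 0.14 and 0.15. The number of subunits past the volcano-plot criterion changed with the library left out, as did the share of all genes. Oocyte and maternal markers summed to 17540 and 20452 CPM in late G&N-L and to 13642 and 15781 CPM in late G&N libraries. Of these, 9 of 13 had higher fitted levels without lactate. The markers of the 2-cell embryo summed to 2416 and 2869 CPM without lactate and to 2357 and 2486 CPM in late G&N libraries. Here 6 of 9 were higher and 3 lower without lactate, and the median of their log2 fold changes was 0.19. Neither marker group was tested for its part in the difference.

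At the early stage, the same contrast gave 0 of 8 subunits at an unadjusted p under 0.05 by edgeR, where 4.52% of 17343 genes were, and 0 past the adjusted threshold by edgeR or DESeq2. Of all genes, 0.00% passed that threshold by edgeR and 0.213% by DESeq2. The median log2 fold change of the 8 was -0.18. Cct7 was at 46.5 and 51.5 CPM in early G&N-L and at 94.1 and 67.6 CPM in early G&N libraries, which did not overlap (log2 fold change -0.58, SE 0.241). Cct8 was at 799 and 731 CPM against 798 and 914 CPM, a log2 fold change of -0.05 (SE 0.204). For Cct6a, the counts of 43 and 2 against 24 and 9 gave a log2 fold change of 0.89 with an SE of 1.78, and no difference was detectable at this depth.

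The difference between the 2 stages was tested itself, as the interaction of stage and lactate in 8 libraries. At an unadjusted p under 0.05, 2 of 8 subunits were past it (7.55% of 22287 genes), and none passed the adjusted threshold by edgeR or DESeq2. Of all genes, 0.00% passed that threshold by edgeR and 1.01% by DESeq2. The change without lactate was more negative at the late stage by 0.86 on the log2 scale for Cct3 (edgeR adjusted p = 0.650) and by 1.26 for Cct4 (edgeR adjusted p = 0.650). The number of genes past both the unadjusted p and a log2 change of 0.5 was 0 without late G&N-L replicate 2, late G&N replicate 2 or early G&N replicate 2, and 4 without early G&N replicate 1.

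Zygotes later cultured without lactate were injected with lactyl-CoA to ask whether it restores what the missing lactate changed. Compared with G&N-L embryos, all 8 fitted log2 fold changes were positive, from 0.13 to 1.53. Cct6a was at 77.7 and 98.4 CPM with Lac-CoA and at 23.97 and 34.99 CPM without it (log2 fold change 1.53, SE 0.294; edgeR adjusted p = 0.294). Cct4 was at 74.2 and 63.8 CPM against 32.9 and 22.1 CPM (log2 fold change 1.28, SE 0.312; edgeR adjusted p = 0.294). Tcp1 was at 171 and 227 CPM against 95.9 and 79.7 CPM (log2 fold change 1.13, SE 0.233; edgeR adjusted p = 0.294). In these 3 genes both Lac-CoA libraries were above both libraries without it, again with no share over all genes computed.

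Cct3 was at 146 and 178 CPM with Lac-CoA and at 97.9 and 95.0 CPM without it (log2 fold change 0.70, SE 0.198; edgeR adjusted p = 0.305). Cct8 was at 313 and 424 CPM against 226 and 265 CPM (log2 fold change 0.53, SE 0.212), and was not among the 4 genes past the unadjusted threshold. The Lac-CoA libraries of Cct2, at 32.8 and 58.4 CPM, enclosed both of its G&N-L libraries. The smallest fitted log2 fold change was that of Cct7, at 0.13 (SE 0.293), and Cct5 had one of 0.41 (SE 0.299). By the volcano-plot criterion, 4 of 8 were higher, against 6.89% of 19610 genes, and 0 passed the adjusted threshold by edgeR, as 0 of all genes did. By DESeq2, Tcp1, Cct4 and Cct6a passed it (3 of 8, where 6.03% of genes did), with DESeq2 adjusted p-values of 0.00161, 0.0133 and 0.000792. Oocyte and maternal markers summed to 10364 and 14732 CPM with Lac-CoA and to 17540 and 20452 CPM without it, with 12 of 13 lower. The markers of the 2-cell embryo summed to 3993 and 4653 CPM against 2416 and 2869 CPM, with 9 of 9 higher, 3 of them past the volcano-plot criterion, and a median log2 fold change of 0.58. The part of both marker groups in these differences was not tested.

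Against late G&N embryos, the Lac-CoA group had 0 of 8 subunits at an unadjusted p under 0.05 by edgeR, where 8.51% of 19613 genes were. By DESeq2, 0 passed the adjusted threshold, where 2.40% of all genes did. The log2 fold changes ran from -0.41 (Cct2, SE 0.353) to 0.49 (Cct6a, SE 0.259), 4 below and 4 above 0, with a median of -0.03. A p above the threshold does not show equal levels. Both Lac-CoA libraries of Cct6a lay above the G&N libraries, while those of Cct2, Cct3 and Cct4 lay below them. These separations only describe the libraries compared, and no share over all genes was computed. The markers of the 2-cell embryo were at 2357 and 2486 CPM in late G&N embryos, and 8 of 9 were higher with Lac-CoA (median log2 fold change 0.95), 4 of them past the volcano-plot criterion. Their part in the subunit values was not tested. The comparisons with G&N-L, with G&N and of G&N-L with G&N share libraries, so their values are not independent.

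**Figure D3:**
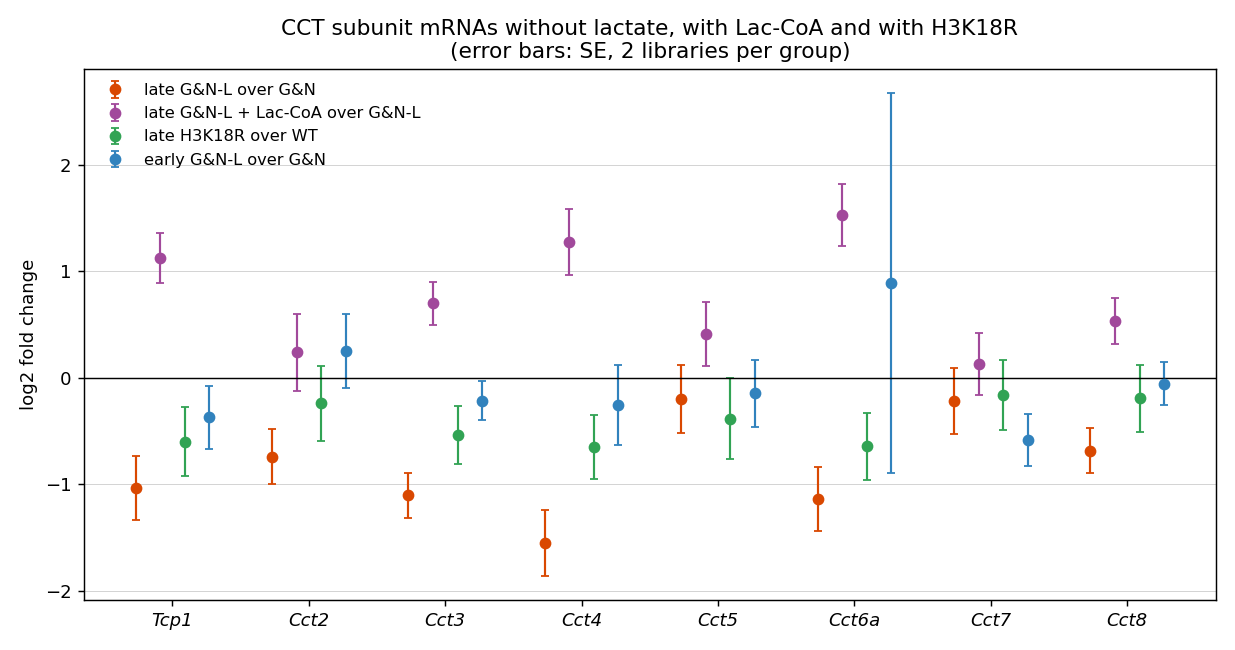
Log2 fold change of each subunit mRNA in 4 comparisons, with the standard error from 2 libraries per group. Late G&N-L over G&N lies below 0 for all 8 genes, from -1.55 to -0.20. Lac-CoA over G&N-L lies above 0 for all 8, from 0.13 to 1.53, and H3K18R over WT lies between -0.65 and -0.16. Error bars span 0 for Cct5 and Cct7 in late G&N-L over G&N and for Cct2 and Cct7 with Lac-CoA. They also span 0 for Cct2, Cct7 and Cct8 in H3K18R over WT, and for Cct2, Cct4, Cct5, Cct6a and Cct8 in early embryos.

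H3K18R and WT embryos were compared to ask which levels differ at the late 2-cell stage in embryos given mutant histone H3. The histone gene H3c1 was at 2091 and 3654 CPM in the H3K18R libraries, but had 4 and 3 counts in the libraries labelled WT. By this gene, the libraries labelled WT showed no matching load of H3 mRNA, and other H3 genes are not given here. If they lack that load, the mutation cannot be told apart from excess H3 mRNA or from the injection. All 8 subunits had lower fitted levels in H3K18R, with log2 fold changes from -0.65 to -0.16 and a median of -0.46, against 0.03 over all genes. Cct4 was at 114 and 79.5 CPM in H3K18R and at 151 and 153 CPM in the libraries labelled WT (log2 fold change -0.65, SE 0.301; edgeR adjusted p = 0.830). Cct6a was at 95.9 and 64.0 CPM against 128 and 123 CPM (log2 fold change -0.65, SE 0.319; edgeR adjusted p = 0.830). Tcp1 was at 334 and 221 CPM against 366 and 478 CPM (log2 fold change -0.60, SE 0.325; edgeR adjusted p = 0.843).

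None of the 8 was at an unadjusted p under 0.05 by edgeR, where 6.44% of 17704 genes were, and none passed the adjusted threshold by edgeR or DESeq2. Of all genes, 0.00565% passed that threshold by edgeR and 0.667% by DESeq2. H3K18R replicate 2 was lower than H3K18R replicate 1 for 7 of the 8 subunits, the exception being Cct5. The share of all genes lower in that replicate was not computed. Without H3K18R replicate 1, 5 of 8 were past the volcano-plot criterion, where 14.4% of 20868 genes were. Oocyte and maternal markers summed to 4246 and 8537 CPM in H3K18R, and to 3860 and 3901 CPM in the libraries labelled WT. The markers of the 2-cell embryo summed to 1764 and 1851 CPM in H3K18R, and to 1115 and 1458 CPM in those labelled WT. Of these, 6 of 9 were higher and 3 lower in H3K18R, and the median of their log2 fold changes was 0.26. Neither marker group was tested for its part in the difference.

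The libraries labelled WT had the highest mean of the 7 conditions for Tcp1 (422 ± 79.3 CPM), Cct3 (286 ± 16.3), Cct4 (152 ± 1.12), Cct5 (67.8 ± 22.9) and Cct6a (125 ± 4.04; SD, n = 2). Late G&N embryos were cultured with Gne140 and NMN and have no described injection, while the study gives the WT embryos as injected with wild-type H3 mRNAs. Injection, Gne140, NMN and any difference between experiments thus cannot be told apart in this comparison. Compared with late G&N embryos, Tcp1 was higher by 1.13, Cct6a by 0.86, Cct4 by 0.82 and Cct8 by 0.72 on the log2 scale (SE 0.202 to 0.305; edgeR adjusted p = 0.0792 to 0.106). By the volcano-plot criterion 4 of 8 were higher, where 12.4% of 18986 genes were, and 0 passed the adjusted threshold by edgeR, where 4.62% of genes did. By DESeq2, the same 4 passed it, where 21.6% of genes did. The median log2 fold change of the 8 was 0.56, and it was 0.67 without WT replicate 1 and 0.47 without WT replicate 2. Over all genes the median was -0.16 in this comparison, and -0.42 and -0.44 without these libraries. The number of subunits past the volcano-plot criterion changed with the library left out, as did the share of all genes. Oocyte and maternal markers summed to 3860 and 3901 CPM in WT and to 13642 and 15781 CPM in late G&N libraries, with 12 of 13 lower in WT, 4 of them by edgeR's adjusted threshold, and a median log2 fold change of -1.54. The markers of the 2-cell embryo were at 1115 and 1458 CPM against 2357 and 2486 CPM, with 9 of 9 lower in WT, 2 of them by the adjusted threshold, and a median of -0.69. The part of these in the subunit values was not tested.

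Across the 7 conditions, the order of the levels differed between the subunits. Cct7 was highest in early G&N embryos (80.9 ± 18.8 CPM), followed by early G&N-L (49.0 ± 3.56) and WT embryos (41.3 ± 2.28), each without overlap with the next. Cct8 was highest in early G&N (856 ± 81.9 CPM), with early G&N-L, WT and H3K18R next, each overlapping its neighbour, and lowest in late G&N-L embryos (246 ± 27.3). Late G&N-L had the lowest mean of the 5 late conditions for each of the 8 genes. Its libraries overlapped those of the next late condition for Cct2 and Cct5, and the share of all genes with late G&N-L lowest was not computed. Cct5 was the flattest, with means from 44.2 ± 9.35 CPM in early G&N-L to 67.8 ± 22.9 in WT, and all neighbours in its order overlapped. The neighbours in the order of Cct2 overlapped as well, from 76.4 ± 3.35 CPM in early G&N-L to 37.3 ± 6.10 in late G&N-L (SD, n = 2).

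**Figure D4:**
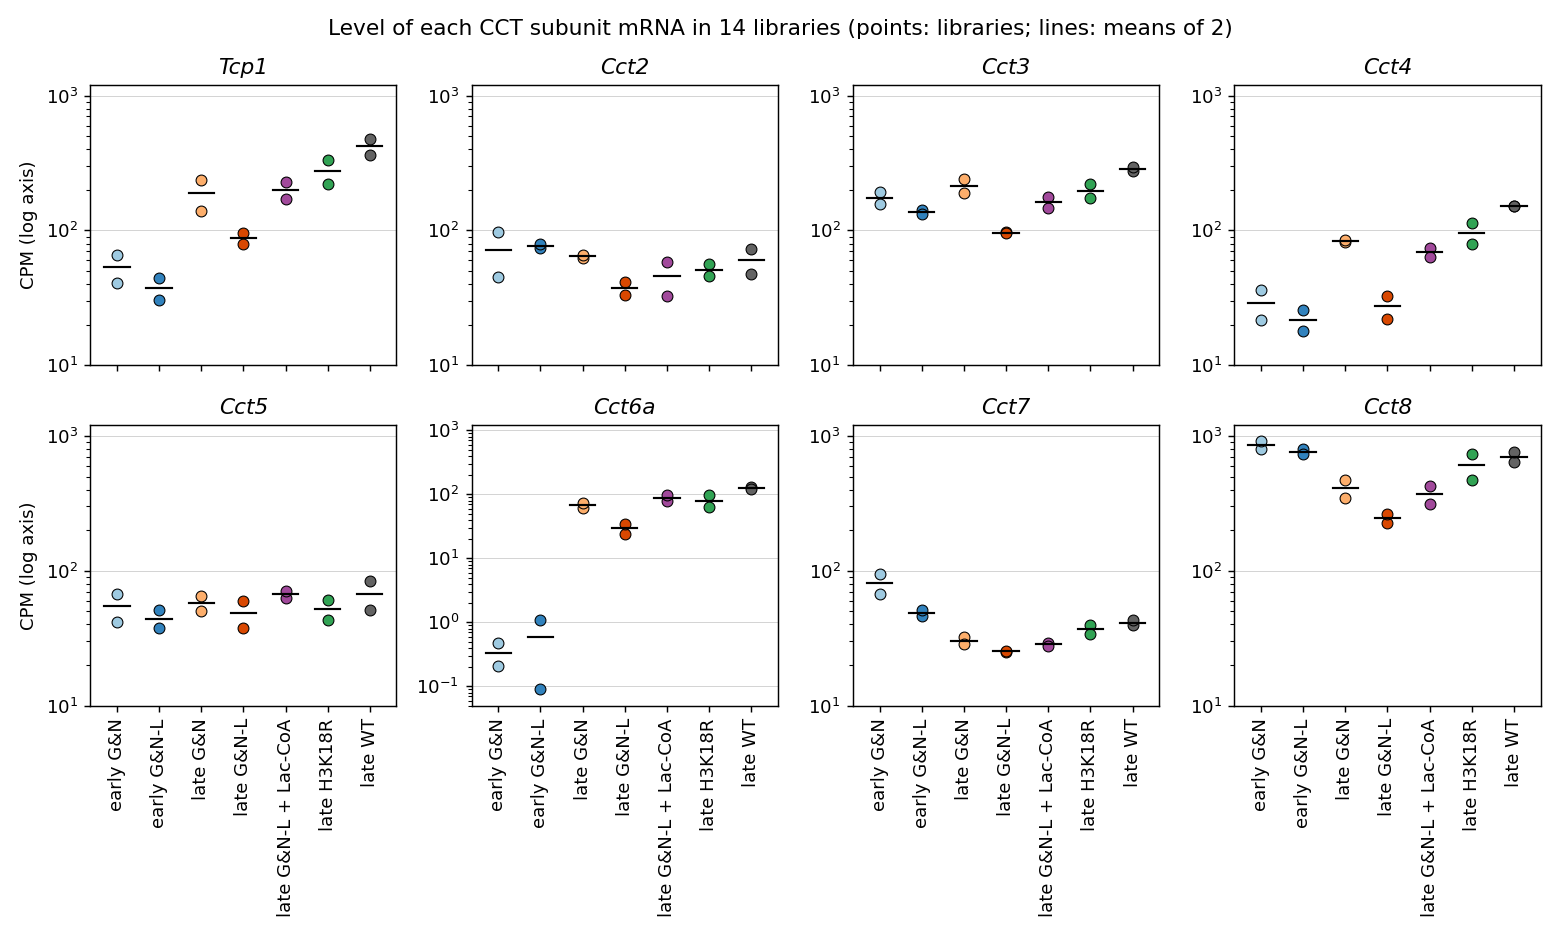
CPM (log axis) of each of the 8 subunit mRNAs in the 14 libraries, by condition, with each library as a point and the mean of 2 as a line. The Cct6a axis reaches lower, since its early libraries lie at 0.0907 to 1.08 CPM, while late G&N-L has the lowest mean of the late groups in every panel. No share over all genes was computed for that order.

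The subunits did not move as a single block. Over the 14 libraries, Pearson's r of log2 level with the mean of the 8 was 0.99 for Tcp1, 0.96 for Cct4, 0.87 for Cct6a and 0.76 for Cct3, but -0.01 for Cct2, -0.06 for Cct8 and -0.35 for Cct7. Within the 10 late libraries, the same r was 0.95 for Cct8, 0.87 for Cct7 and 0.72 for Cct2, and 0.46 for Cct5. The libraries of a condition share their embryos' treatment, and the mean contains each member, so these are descriptions without a test. Among 7687 genes at a mean of at least 10 CPM, the 5 genes outside the family most like the mean of the 8 were U2af1 (a splicing factor subunit, r = 0.99), Eif4e2 (a cap-binding protein, 0.98), Rpl37a and Rpl19 (ribosomal proteins, 0.98 and 0.98) and Edf1 (0.98), over 14 libraries.

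Several members share exonic bases with a gene on the other strand, and the strand setting of the counting was not given in the sources used here. Cct8 shares 588 bases with Usp16, which was at 253 to 409 CPM in the 4 early libraries and at 489 to 765 CPM in the 10 late ones. Cct7 shares 994 bases with Pradc1 (16.8 to 53.4 CPM), Cct6a 465 with Psph (0.870 to 24.1 CPM) and Tcp1 442 with Mrpl18 (94.4 to 182 CPM). The log2 fold changes of these 4 partners without lactate in late embryos were 0.06 (Usp16), 0.32 (Pradc1), -0.58 (Psph) and 0.48 (Mrpl18). The levels of Pradc1, Psph and Mrpl18 are not given by stage. The part of reads from any of these partners in the subunit values was not tested. Of the near-identical copies elsewhere in the genome, the pseudogene Gm5380 (93.5% identity over 569 bases) held 3227 counts against 21485 of Cct7, and Gm15495 (86.5%) held 1739 counts against 31486 of Cct4. Reads could be split between Cct7 or Cct4 and these copies, which leaves their levels somewhat uncertain.

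Genes that work with CCT were counted in the same way, beside the shares of all genes given above for the stage comparisons (8.18% higher and 5.47% lower in G&N, 5.97% higher and 5.87% lower in G&N-L). Prefoldin hands unfolded actin and tubulin to CCT. Between late and early G&N embryos, 2 of its 6 subunits fell and 1 rose: Pfdn4 by a log2 fold change of -3.71 (SE 0.290; edgeR adjusted p = 0.00607), Pfdn1 by -2.13 (SE 0.268; 0.0125) and Pfdn6 by 2.06 (SE 0.420; 0.0364). In G&N-L embryos 5 of 6 fell and none rose, with Pfdn4 (-3.85), Pfdn2 (-1.80), Vbp1 (-1.06) and Pfdn1 (-1.54) at the smallest p. Without lactate, late Pfdn6 was at 11.8 and 13.0 CPM against 35.5 and 61.7 CPM in late G&N libraries, and at 31.3 and 32.5 CPM with Lac-CoA. Its log2 fold changes of -1.91 and 1.32 were past the volcano-plot criterion (edgeR adjusted p = 0.312 and 0.294), as the only prefoldin subunit in either comparison. Pfdn6 was also the only one past that criterion between H3K18R and WT (-1.08; edgeR adjusted p = 0.734), and it was higher in WT than in late G&N embryos (1.74; edgeR adjusted p = 0.0476).

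The phosducin-like cofactors bind CCT together with its substrates. Of 4 tested between late and early G&N embryos, 0 passed the adjusted threshold by edgeR. By the volcano-plot criterion 3 were lower and 1 higher, where 34.4% of all genes were past it in either direction. Txndc9 (log2 fold change -1.57; edgeR adjusted p = 0.0248) and Pdcl3 (-1.17; edgeR adjusted p = 0.0334) fell in G&N-L embryos. Of the 8 measured genes of the R2TP complex and its prefoldin-like partners, 2 fell and 1 rose in G&N embryos, and 3 fell and 1 rose in G&N-L embryos. The ATPase Ruvbl1 rose (2.15 in G&N and 1.31 in G&N-L; edgeR adjusted p = 0.0260 and 0.0219) while its partner Ruvbl2 fell (-2.39 and -1.87; edgeR adjusted p = 0.0323 and 0.0178). Dnaaf10, a partner of R2TP, fell as well (-4.16 and -2.87; edgeR adjusted p = 0.00703 and 0.0130), and Pdrg1 fell by 1.60 in G&N-L embryos (edgeR adjusted p = 0.0437). In late embryos Ruvbl1 had a log2 fold change of -0.97 without lactate and of 1.03 with Lac-CoA over G&N-L (edgeR adjusted p = 0.334 and 0.294). The tubulin folding cofactors, which act after CCT, had 1 of 6 called between the stages, Tbca in G&N-L embryos (-0.85; edgeR adjusted p = 0.0391), and Tbcb was past the volcano-plot criterion without lactate (-1.52) and with Lac-CoA (1.32).

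Among the actin and tubulin genes, whose proteins CCT folds, 1 of 14 tested rose between late and early G&N embryos, and 2 of 15 in G&N-L embryos, with none lower. Of all genes tested, 8.18% rose in G&N and 5.97% in G&N-L embryos, and no set test was run on these small counts. Tubb5, a beta-tubulin, was at 28.4 to 36.0 CPM in the early libraries and 64.5 to 132 CPM in the late ones, with log2 fold changes of 1.82 in G&N and 1.36 in G&N-L embryos (edgeR adjusted p = 0.0264 and 0.0204). The other call was Tubg2, a gamma-tubulin, in G&N-L embryos (1.19; edgeR adjusted p = 0.0237). Of the other proteins folded by CCT, 2 of 12 rose in G&N and 3 of 11 in G&N-L embryos, with none lower. The tumour suppressor Vhl and cyclin E1 (Ccne1) rose in both media, by 4.97 and 4.70 in G&N and by 3.21 and 3.49 in G&N-L embryos on the log2 scale (edgeR adjusted p = 0.00629 to 0.0262), and the G protein subunit Gnb1 rose by 1.01 in G&N-L embryos (edgeR adjusted p = 0.0280). Ccne1 was past the volcano-plot criterion without lactate (-1.24; edgeR adjusted p = 0.311) and with Lac-CoA over G&N-L (1.03; edgeR adjusted p = 0.294). The median log2 fold change without lactate in late embryos was -0.53 for the 6 prefoldin genes, -0.09 for 15 actin and tubulin genes and -0.16 for 11 other clients, beside -0.89 for the 8 subunits. Hspd1 and Hspe1, which form the separate chaperonin of mitochondria, had log2 fold changes above 0 in that comparison, with a median of 0.47, and neither passed the test. The relatives of CCT subunits (Cct6b, Cct8l1, Mkks, Bbs10 and Bbs12) had 0 of 4 tested genes past the adjusted edgeR threshold in that comparison, and Bbs12 was called lower in late than in early G&N-L embryos, from 99 and 78 counts to 0 and 0.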

How the data were processed

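RNA-seq libraries of 5 embryos each were held for 7 conditions, 2 per condition, while the labels' protocol states 3 replicates. Per the labels and the study's methods, the authors used FastQC and Trim Galore on the reads, HISAT2 with mm39 for alignment and featureCounts for gene-level counting. The deposited files hold raw, unnormalized read counts. The annotation release and strand setting are not given in the sources used here. Groups were taken from the titles, because the treatment labels of the early libraries do not match them, and the columns named K18A were matched to the H3K18R titles.

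The 4 libraries of a comparison were fitted by themselves with edgeR 4.0.16 in R 4.3.3, and the interaction on 8 libraries (default low-count filter, TMM, quasi-likelihood test, two-sided, Benjamini-Hochberg adjustment over all genes tested, threshold 0.05). SE is the log2 fold change divided by the square root of F. The volcano-plot criterion, whose cut-offs were set here, combines a log2 fold change over 0.5 in size with an unadjusted p under 0.05. CPM used TMM sizes over 14 libraries. A length column was planned but is not in the count table, so levels per kilobase used the GENCODE canonical transcript on GRCm39, matched by gene identifier (56236 of 56923). Promoters and overlaps came from the same annotation and genome, and near copies from blastn (at least 200 aligned bases). With 2 libraries a group, the smallest two-sided p of an exact permutation test is 0.333. The edgeR script was tested on simulated data. Replicates of a condition differed by more than counting noise (chi-square per degree of freedom 47.8 to 195).

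The members and gene lists were chosen with earlier results of these data known. All 8 members are named in the comparisons; of each other list, up to 4 genes past the adjusted threshold with the smallest p, or else up to 2 past the volcano-plot criterion; Hspd1, Cct6b, H3c1, overlapping genes and copies are given as values. Alternatives were DESeq2 1.42.0, its size factors, library totals, no filter, a minimum of 10 counts per library, 1 fit of all 14 libraries, a replicate block, each library left out in turn, exon-union lengths and the 10 late libraries for the pattern, the last 2 chosen after seeing the data.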

Additional observations from a re-analysis of the deposited data

How the results depend on the processing

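Of 500 fold changes of the 8 subunits recomputed under alternatives that kept all libraries, 459 kept their direction and side of the threshold, 25 passed it, 8 no longer did and 8 changed sign. Of 320 recomputed with 1 library left out, these numbers were 266, 1, 20 and 33. In late G&N-L against G&N, the number of subunits past the adjusted threshold was 1 without a filter (1.10% of all genes) and 4 by DESeq2 (4.70%), and for Lac-CoA against G&N-L it was 3 by DESeq2 (6.03%). For WT against late G&N it was 2 without a filter (13.0% of all genes), 3 with at least 10 counts in every library (22.8%) and 4 by DESeq2 (21.6%), where 4.62% of genes and no subunit passed in the reported fit. Past the volcano-plot criterion there was 1 subunit in early G&N-L against G&N without a filter (4.58% of all genes), by DESeq2 (5.12%) and with all 14 libraries (4.59%). In the interaction there was 1 with library totals (7.33% of all genes) and 4 by DESeq2 (8.95%).

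With 1 library left out, counts past the adjusted threshold ran from 1 to 4 for late against early G&N and from 1 to 2 for late against early G&N-L. Counts past the volcano-plot criterion ran from 2 to 5 for late G&N-L against G&N, 0 to 1 for early G&N-L against G&N, 0 to 5 for H3K18R against WT, 2 to 5 for WT against late G&N and 0 to 4 for the interaction. The lone library of a group was then assumed to vary like the other group's. The share of all genes called also changed with the library left out, so these ranges describe the fits as much as the subunits. The share of adjusted calls that were higher was 59.9% for late against early G&N with TMM and 76.4% without it, and 50.4% and 72.6% in G&N-L.

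The replicate numbers mark no shared batch in the labels, and replicate differences correlated at -0.0402 to 0.00709 across genes. Such a value over all genes cannot exclude a batch that is weak or touches only part of the genes. With a replicate block, 2 subunits passed the adjusted threshold in late against early G&N (9.46% of all genes) and 2 in late against early G&N-L (7.48%). The interaction of Cct5 was then 0.017. With all libraries kept, signs turned in these cases, and the cause was not tested. Cct7 for Lac-CoA against G&N was -0.0086 with DESeq2 size factors, -0.0039 with at least 10 counts, -0.0085 by DESeq2 and -0.083 with all 14 libraries; Cct2 for late against early G&N was 0.16 with library totals; and the interaction of Cct5 was 0.029 with library totals and 0.053 with all 14 libraries.

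Left-out libraries gave log2 ranges across 0 as follows. Without lactate, late Cct5 ran from -0.55 to 0.083, and in early embryos Cct2 from -0.13 to 0.79, Cct4 from -0.64 to 0.042, Cct5 from -0.48 to 0.12, Cct6a from -1.63 to 1.74 and Cct8 from -0.24 to 0.16. For Lac-CoA, Cct2 against G&N-L ran from -0.22 to 0.59, and against G&N Tcp1 from -0.17 to 0.56, Cct7 from -0.12 to 0.10 and Cct8 from -0.31 to 0.14. For H3K18R, Cct2 ran from -0.50 to 0.093, Cct5 from -0.67 to 0.0046 and Cct8 from -0.55 to 0.090. For WT against G&N, Cct2 ran from -0.47 to 0.15 and Cct5 from -0.20 to 0.50. For late against early G&N, Cct2 ran from -0.56 to 0.46 and Cct5 from -0.17 to 0.40, and in G&N-L Cct4 from -0.042 to 0.60 and Cct5 from -0.25 to 0.38. The interaction ran from -0.38 to 0.31 for Cct5 and from -2.83 to 0.54 for Cct6a, above 0 only without early G&N-L replicate 1.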
